A study of Mus musculus with 21 samples.

Results

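The baseline transcriptome of EL4, a chemically induced T lymphoma line from C57BL/6 mice, was described from the 2 RNA libraries of cells that carried a control hairpin against luciferase (shLuc). These are 2 of the 21 samples of the series, which studied CTCF, chromatin contacts and gene expression in EL4, Th2 and embryonic stem cells. The cells were grown in DMEM with serum, and libraries were made from poly(A) RNA. Luciferase is absent from the mouse genome, so the hairpin has no intended target. How it was delivered, and whether the cells were a pool or a clone, is not stated in the labels, which also do not say that the libraries came from separate cultures. The spread between them may therefore be technical. The values are RPKM, in which read numbers are divided by the length of the gene model and by library depth. The deposited columns of the libraries are headed 2 and 3, and pairs of values below follow that order. The table also holds 2 libraries of EL4 cells with a hairpin against Ctcf (shCTCF), used here as further libraries of the line. Ctcf itself was at 49 and 50.9 RPKM with shLuc and at 26.5 and 26.4 RPKM with shCTCF. A further EL4 RNA library, whose title names no hairpin, is not analysed here.

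T cells read antigen through a receptor whose chains signal through the CD3 proteins. The kinase Lck phosphorylates CD3, Zap70 docks there, and the adaptors Lat and Lcp2 gather the enzymes that raise calcium and activate RAS and NF-kB. The receptor genes are assembled in the thymus under Notch signalling, by RAG recombinase and the terminal transferase Dntt, while Tcf7, Gata3 and Bcl11b fix the T cell programme. Mature cells then carry CD4 or CD8, and CD4 cells can take helper fates named after the cytokines they secrete.

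Of 21844 gene symbols in the table, 9672 (44.3%) were at 1 RPKM or more in both libraries, the level called expressed below. A further 8581 symbols were listed at 0 in both. In 1266 entries overlapping genes share a row (such as Cand2+Rpl32), and their reads cannot be assigned to either gene. Among the 20578 symbols with a row of their own, 8811 (42.8%) were expressed, 3446 (16.7%) were low and 8321 (40.4%) were listed at 0. The median over these 20578 symbols was 0.203 RPKM. The median of expressed genes was 18.3 RPKM, with quartiles of 7.68 and 39.7 RPKM. In both libraries 6434 symbols reached 10 RPKM, 693 reached 100 RPKM and 17 reached 1000 RPKM. The 100 highest genes held 19.5% and 18.8% of the summed RPKM, and 876 genes held 50% of it.

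The top of the ranking was made of translation, glycolysis and cytoskeleton genes. Eef1a1, the elongation factor that brings aminoacyl-tRNA to the ribosome, was highest at 3192 and 3125 RPKM. Actb, cytoplasmic actin, followed at 2402 and 2346 RPKM, and Eef2, the translocation factor, at 2105 and 1802 RPKM. The pairs of these 3 genes did not overlap. The first 7 ranks held 3 glycolytic genes: Ldha at 1807 and 1619 RPKM, Aldoa at 1758 and 1660 RPKM, and pyruvate kinase (Pkm2 in the table) at 1781 and 1532 RPKM. Their pairs overlapped, so their order is not resolved. The rest of the first 20 were Gnb2l1 (the ribosomal scaffold RACK1), the ribosomal genes Rplp1, Rpl8, Rplp0, Rpl4 and Rps15, the ferritin chain Fth1, the chaperone Hsp90ab1, Pabpc1, cofilin (Cfl1), ubiquitin (Ubb), tubulin (Tubb5) and the shared rows Cand2+Rpl32 and Eno1+Gm5506. Of 73 cytosolic ribosomal protein genes with their own row, 69 (94.5%) were expressed, beside 42.8% of all symbols. Together the 73 genes held 6.45% and 6.48% of the summed RPKM. The first gene in the ranking that is not a housekeeping gene was Tcf7, a transcription factor of the T lineage, at rank 23.

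The libraries agreed closely. Over the 13263 symbols above 0 in either library, Pearson's r of log2(RPKM + 1) was 0.994, as a description across genes, which are not independent replicates. Depth was recovered from the values: for a 1 kb gene model 1 read equalled 0.191 and 0.163 RPKM, from divisors of 5240362 and 6133046 reads. Between 1 and 3 RPKM the SD of the log2 ratio of the libraries was 0.53, the same as read counting alone gives. Between 30 and 100 RPKM it was 0.15 against 0.094 from counting, so there the spread was larger than counting error. A value of 0 on 1 kb allows up to 0.572 and 0.489 RPKM (3 reads, counting error only).

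**Figure D1:**
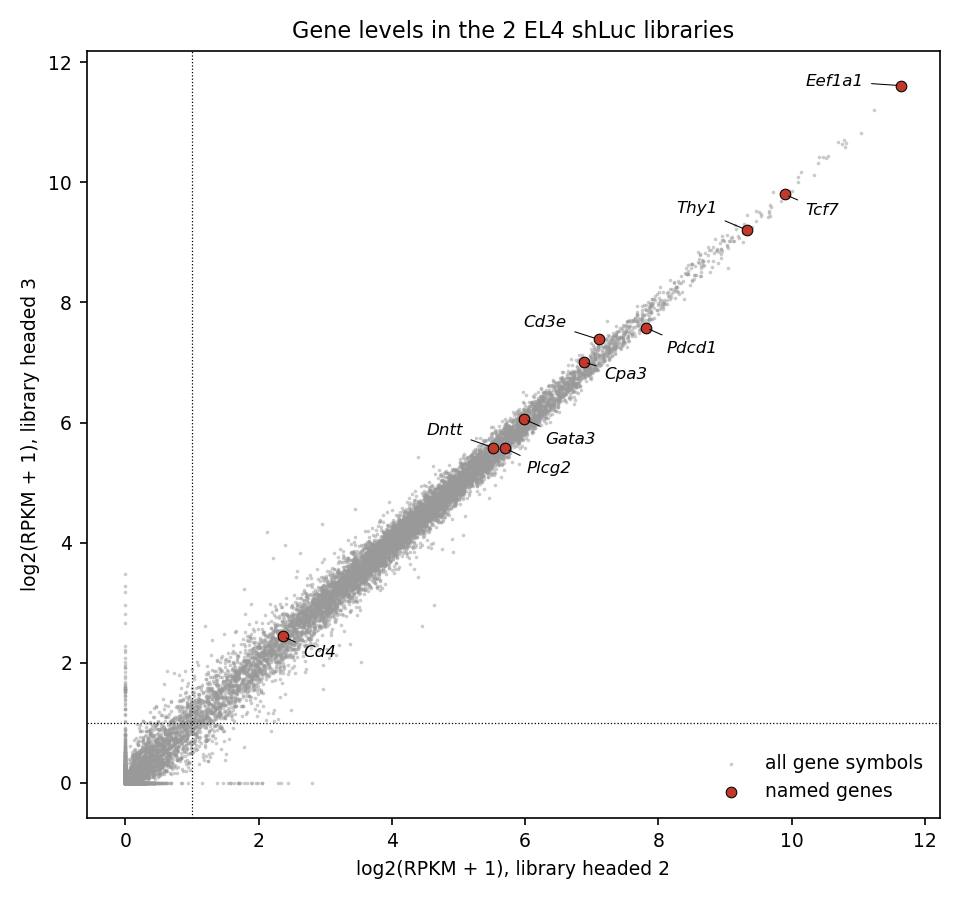
Each point is a gene symbol, placed by log2(RPKM + 1) in the shLuc library headed 2 (x axis) and in the library headed 3 (y axis), and dotted lines mark 1 RPKM. Named genes in red range from Cd4 at 4.13 and 4.43 RPKM to Eef1a1 at 3192 and 3125 RPKM and lie near the diagonal.

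The markers given for the line were well above the median of expressed genes. Thy1, the GPI-anchored surface glycoprotein that marks mouse T cells, was at 640 and 590 RPKM (615 ± 35.4, SD, n = 2), rank 42, on 5819 and 6277 recovered reads. Cd3e, the CD3 epsilon chain, was at 136 and 166 RPKM (151 ± 21.1, SD, n = 2), rank 402, on 1026 and 1464 reads. Gata3, a zinc-finger factor needed for T cell development and the Th2 fate, was at 62.3 and 65.6 RPKM (63.9 ± 2.38, SD, n = 2), rank 1329, on 1049 and 1294 reads. In a short marker panel all 10 T cell markers with their own row were expressed, beside 42.8% of all symbols. The lowest was Bcl11b at 25.1 and 27.2 RPKM. Of 16 panel markers of B cells, macrophages, NK cells, erythroid cells, fibroblasts and embryonic stem cells, 1 was expressed. It was the lysosomal protein Cd68 at 1.70 and 1.46 RPKM. The panel leaves out members of the longer lists below that go the other way. Examples are the T cell gene Cd8a, listed at 0, and the B cell gene Pou2af1 at 153 and 148 RPKM.

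The receptor complex and its proximal signalling were largely on. Of 36 genes listed for this machinery, 30 (83.3%) were expressed, beside 42.8% of all symbols, with a median of 35.3 RPKM. Among the CD3 chains, Cd3g stood highest at 200 and 204 RPKM. Cd3d was at 155 and 159 RPKM, inside the range of Cd3e, so these last 2 were not resolved from each other. The zeta chain Cd247 shares its row with Pou2f1, at 20.3 and 23.0 RPKM, and has no value of its own. The highest members of the list were Ptprc, the CD45 phosphatase, at 364 and 397 RPKM and Ptpn6, the inhibitory phosphatase SHP-1, at 355 and 311 RPKM. Lat, the membrane scaffold, was at 279 and 249 RPKM. Sla, an adaptor that limits receptor signalling, was at 255 and 255 RPKM, inside the range of Lat. Csk, which switches Lck off, was at 191 and 180 RPKM, and Lck at 152 and 142 RPKM. Zap70 was at 133 and 119 RPKM.

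Downstream of these kinases the levels spread over a wide range. Lcp2, the SLP-76 adaptor, was at 65.9 and 66.0 RPKM and the exchange factor Vav1 at 34.6 and 33.3 RPKM. Bcl10 and Malt1, which lead to NF-kB, were lower, at 22.2 and 22.3 RPKM and at 11.4 and 12.2 RPKM. Outside this list, the NF-kB subunits Nfkb1 (74.4 and 67.9 RPKM) and Rela (59.7 and 53.7 RPKM) were above Vav1, and Rel and Relb below it. The thymic selection adaptor Themis was at 26.9 and 35.4 RPKM. At the bottom, Sit1 was at 2.38 and 2.31 RPKM, and the low group held Txk at 0.706 and 1.43 RPKM and Ptcra, the pre-T cell receptor alpha chain, at 0.149 and 0.381 RPKM. Plcg1 and Prkcq, the phospholipase and protein kinase C isoforms usually drawn in this pathway, were both listed at 0. Whether such a 0 reflects expression or the counting of reads could not be checked without the reads. Tmsb4x, a thymosin known to be abundant in lymphocytes, was at 0 and 1.46 RPKM in the same table, so a 0 here is not read as silence.

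**Figure D2:**
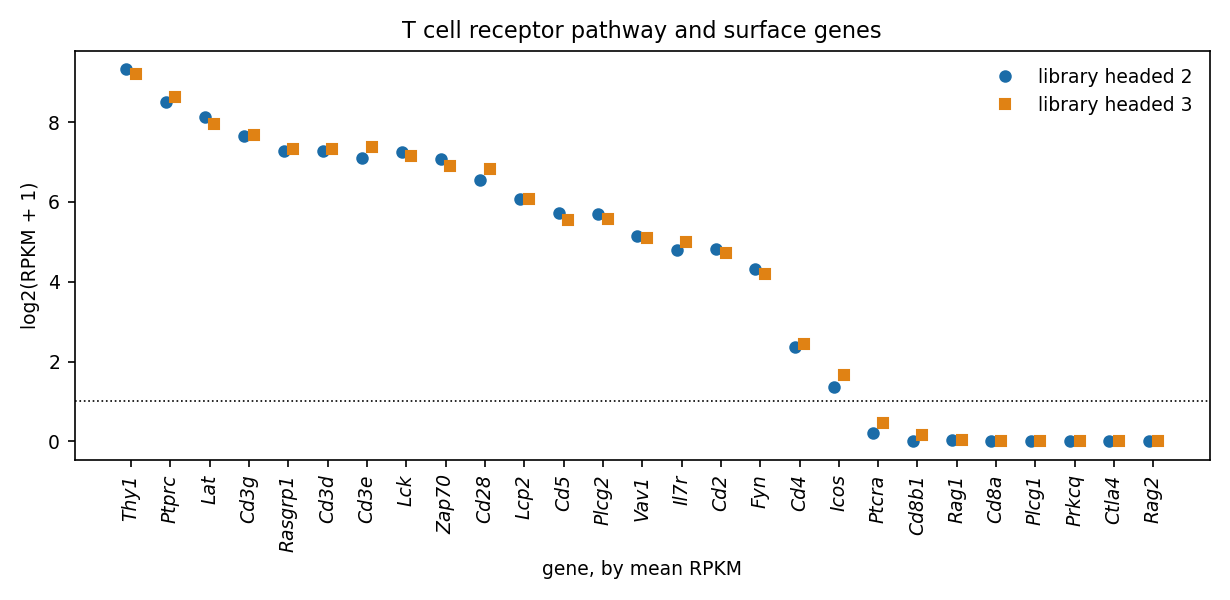
Levels of T cell receptor pathway and surface genes as log2(RPKM + 1) in the shLuc libraries headed 2 (circles) and 3 (squares), ordered by mean RPKM, with 1 RPKM dotted. Thy1 stands highest at 640 and 590 RPKM, and Cd8a, Plcg1, Prkcq, Ctla4 and Rag2 lie at 0 in both libraries.

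Among 33 T cell surface molecules, 27 (81.8%) were expressed, beside 42.8% of all symbols, with a median of 7.67 RPKM. After Thy1 came Ly6e at 551 and 542 RPKM and the co-stimulatory receptor Cd28 at 93.2 and 113 RPKM. The hyaluronan receptor Cd44, which is high on antigen-experienced cells, was at 56.2 and 60.8 RPKM. Cd5, which dampens receptor signalling, was at 51.9 and 46.1 RPKM, whereas its relative Cd6 was at 1.82 and 1.45 RPKM. Ly9 (66.8 and 64.4 RPKM) and Ly6a, the Sca-1 antigen (63.4 and 56.3 RPKM), completed the upper group with Spn, the leukosialin CD43, at 59.7 and 51.7 RPKM.

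The co-receptors were lower than the CD3 chains. Cd4, which binds MHC class II, was at 4.13 and 4.43 RPKM, more than an order of magnitude below every CD3 chain with a value. Cd8a was listed at 0, and Cd8b1 was at 0 and 0.115 RPKM. The survival receptor Il7r was at 26.7 and 30.7 RPKM and the adhesion molecule Cd2 at 27.2 and 25.5 RPKM. The activation marker Cd69 was at 7.19 and 8.15 RPKM. Of the relatives of Cd28, Icos was at 1.58 and 2.15 RPKM and Ctla4 was listed at 0.

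The transcription factors of the T lineage were on in 32 of 38 cases (84.2%), beside 42.8% of all symbols, with a median of 25.5 RPKM. Tcf7, the TCF-1 factor that acts early in T cell commitment, was at 953 and 890 RPKM, far above the next member. Ikzf1, the Ikaros zinc-finger factor, was at 472 and 473 RPKM. Zfpm1, the GATA partner FOG-1, was at 153 and 132 RPKM. The E protein Tcf12 was at 99.3 and 99 RPKM and Myb, a factor of progenitors and thymocytes, at 82.5 and 87.5 RPKM. Id2, an inhibitor of E proteins, was at 76.2 and 89.3 RPKM, with Ikzf2 at 69.3 and 80.8 RPKM and Cbfb, the partner of RUNX factors, at 64.7 and 73.4 RPKM. Of the factors that part the CD4 and CD8 lineages, Runx3 (linked to CD8) was at 45.5 and 42.2 RPKM and Zbtb7b (ThPOK, linked to CD4) at 12.6 and 10.1 RPKM. The pairs of these last 2 genes did not overlap. Bcl11a, Hhex and Egr3 were listed at 0.

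The early thymic and Notch list had 14 of 40 members (35.0%) expressed, beside 42.8% of all symbols. The members that were on included Dntt, the terminal transferase that adds bases at receptor joints, at 44.8 and 46.9 RPKM. Its partners in recombination were at or near 0: Rag1 was at 0.0286 and 0.0245 RPKM and Rag2 was listed at 0. Notch2 was at 46.7 and 43.7 RPKM, whereas Notch1, the receptor that drives T cell commitment, was at 0.0804 and 0.0344 RPKM. Rbpj, the DNA-binding partner of Notch, was at 23.8 and 24.3 RPKM. The Notch target Hes1 was at 2.24 and 2.36 RPKM, and Nrarp, Heyl and Notch3 were listed at 0. Hes6, at 85.0 and 76.3 RPKM, was the highest member, followed among ubiquitin ligases of the Deltex family by Dtx2 at 44.5 and 34.4 RPKM, Dtx3 at 13.5 and 13.0 RPKM and Dtx4 at 5.23 and 5.03 RPKM. The oncogenes of T cell leukaemia Tal1, Lmo1, Lmo2, Tlx1 and Tlx3 were all listed at 0. Cd24a was also listed at 0, but near-identical copies of this gene make its value uncertain.

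Helper subset genes were on in 15 of 42 cases (35.7%), beside 42.8% of all symbols. The receptor Ccr4, found on Th2 cells, was at 34.5 and 36.4 RPKM, and Tgfb1 was the highest member at 81.7 and 73.8 RPKM. The signal transducers Stat3 (43.4 and 40.8 RPKM), Stat5a (38.0 and 34.5 RPKM) and Stat5b (36.2 and 32.8 RPKM) had adjoining levels. Of the master regulators, Tbx21 (Th1) was at 1.20 and 1.92 RPKM and Bcl6 (follicular helper) at 6.97 and 6.95 RPKM. Maf, Ahr and Stat4 were listed at 0. The cytokines of Th2 cells were at or near 0 next to an expressed Gata3, with Il4 at 0, Il5 at 0 and 0.106 RPKM, and Il13 at 0.158 and 0 RPKM. Il17f, at 5.03 and 4.72 RPKM, was the highest interleukin of the list, and its neighbour in function Il17a was at 0.489 and 0.278 RPKM. Foxp3 shares a row with 3 other symbols and has no value of its own.

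Outside the T cell lists, 49 of 314 lineage genes (15.6%) were expressed, beside 42.8% of all symbols and 117 of 187 T cell list members (62.6%). No list of another cell type reached the background share. Among 25 embryonic stem and germ cell genes none was expressed, and 19 were listed at 0, including Pou5f1, Sox2 and Zfp42. Neutrophil genes gave 1 of 20, the interleukin receptor chain Il5ra at 1.83 and 3.12 RPKM.

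Several members of other lineages nevertheless stood at high levels. Pou2af1, the octamer co-activator of B cells, was at 153 and 148 RPKM, while Ms4a1, Pax5 and Cd79b were listed at 0. Xbp1, a factor of secretory cells and the unfolded protein response, was at 50.5 and 46.7 RPKM. The remaining B cell genes on were H2-Eb1 (2.86 and 2.34 RPKM), Cd22 (2.75 and 2.39 RPKM) and Spib (1.44 and 1.29 RPKM). Cpa3, the carboxypeptidase of mast cell granules, was at 116 and 128 RPKM, with the mast cell protease Cma1 at 0.177 and 0.152 RPKM and Kit at 0.111 and 0.0316 RPKM. The growth factor Hgf was the other expressed mast cell gene, at 11.8 and 13.0 RPKM.

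Some myeloid genes were also expressed. Fcer1g, the signalling gamma chain of Fc receptors, was at 31.6 and 41.1 RPKM, and Fcgr2b, the inhibitory IgG receptor, at 33.8 and 37.2 RPKM, while other Fc receptor genes were lower, with Fcgr1 at 0 and 0.0630 RPKM and Fcer1a listed at 0. The scavenger receptor Cd163 was at 4.72 and 4.81 RPKM, Cebpb at 9.77 and 7.91 RPKM and Itgam at 1.92 and 3.10 RPKM, while Spi1, the PU.1 factor that drives myeloid genes, was at 0.286 and 0.245 RPKM. Of the cytotoxic list, Cst7, a cysteine protease inhibitor, was at 18.0 and 17.0 RPKM. The others on (Gzma, Fcgr3, Ccl5, Cd160, Gzmm and Ctsw) lay between 1.19 and 4.27 RPKM in every library. Few reads carried some of them, with 4 and 11 recovered for Ccl5 and 11 and 9 for Ctsw. Klrk1, Ncr1 and Nkg7 were listed at 0. A row that joins 9 Klra symbols, the Ly49 receptor genes, was at 44.5 and 55.6 RPKM and cannot be divided among them.

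Genes listed for non-blood tissues were on in small numbers. In the stroma list Vim (808 and 719 RPKM) and S100a4 (621 and 634 RPKM), both also found in lymphocytes, were high next to Acta2, smooth muscle actin, at 71.0 and 67.8 RPKM and Serpinf1 at 27 and 27.4 RPKM. Col1a1 was at 0.0406 and 0 RPKM, and Col3a1, Dcn and Fn1 were listed at 0. Of the epithelial list, the transcription factors Elf3 (13.0 and 10.1 RPKM) and Grhl2 (9.65 and 10.0 RPKM) were expressed, while Epcam, Cdh1, Krt8 and Krt18 were listed at 0. Of the neural list, Tubb3 (37.2 and 31.6 RPKM), Mbp (16.1 and 16.3 RPKM) and the RNA-binding protein Elavl4 (9.89 and 11.5 RPKM) were expressed, and Snap25, Syt1 and Gfap were listed at 0. Muscle gave Acta1 at 20.4 and 19 RPKM with Mylpf, Tnni1 and Tnnt3 between 1.38 and 3.40 RPKM, and Myod1 and Myog were listed at 0. Liver gave transferrin (Trf) at 24.1 and 21.3 RPKM and Tat at 4.25 and 4.12 RPKM, with Alb listed at 0. Apoa2, also of the liver list, was at 1.47 and 1.25 RPKM, on only 4 and 4 recovered reads. The fatty acid binding protein Fabp4 was at 6.85 and 5.34 RPKM, the 1 expressed gene of 12 in the adipocyte list.

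In the blood and vessel lists, the transferrin receptor Tfrc, used by all dividing cells, was at 131 and 147 RPKM and spectrin Sptb at 3.36 and 3.37 RPKM, while Gata1 was at 0.211 and 0.180 RPKM. Platelet genes gave Gp6 at 2.65 and 3.26 RPKM and Itgb3 at 2.48 and 2.74 RPKM. Endothelial genes gave Pecam1 at 15.2 and 13.4 RPKM, Erg at 2.15 and 1.62 RPKM and Flt1 at 1.37 and 1.69 RPKM, and Cdh5 and Kdr were listed at 0. Dendritic cell genes gave Bst2, an antiviral tether, at 93.9 and 86.4 RPKM, Irf8 at 4.25 and 4.33 RPKM, Flt3 at 3.70 and 3.97 RPKM and Cd80 at 1.46 and 1.92 RPKM. Progenitor genes added the angiopoietin Angpt1 at 11.9 and 14.7 RPKM and Hoxb4 at 6.54 and 5.53 RPKM.

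**Figure D3:**
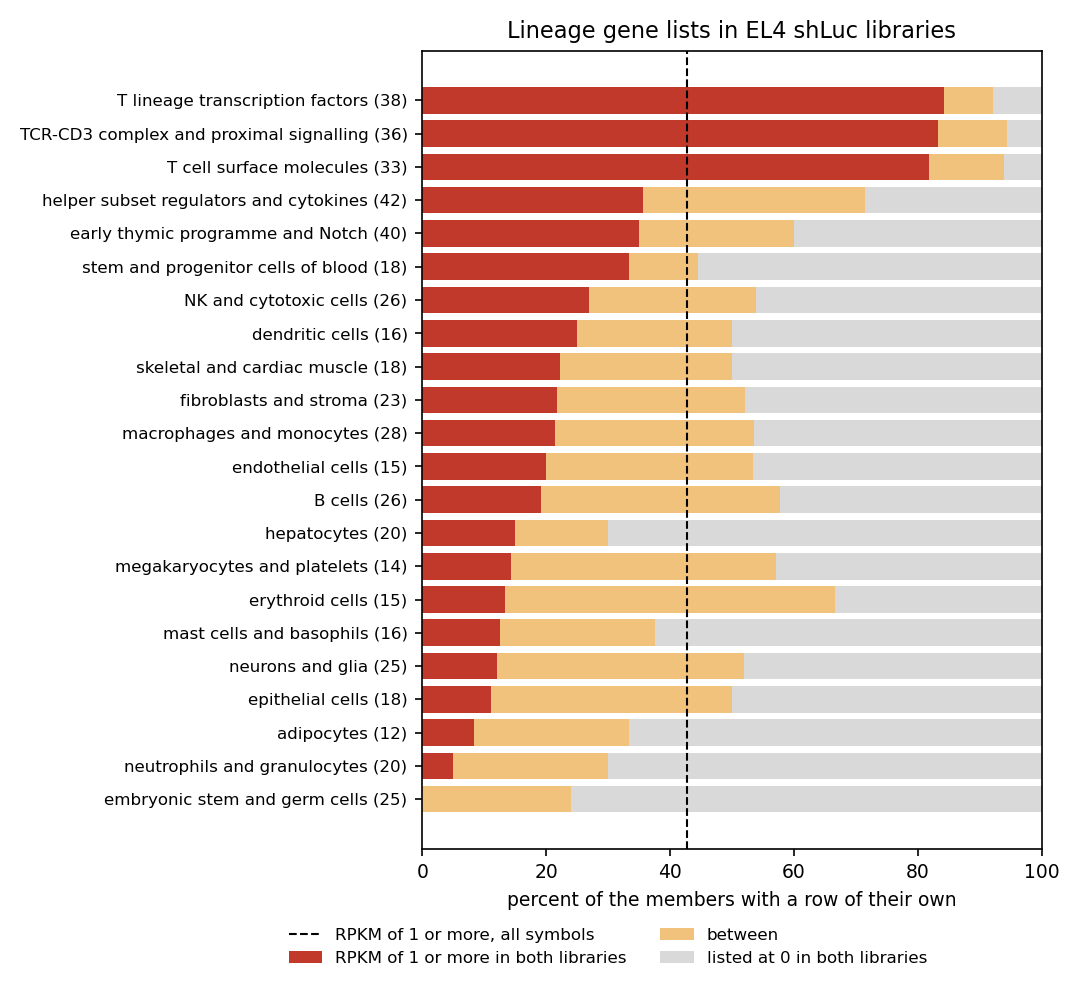
Bars give, for each lineage list, the percent of members with their own row (number in brackets) that were expressed in both shLuc libraries (red), between (yellow) or listed at 0 in both (grey). The dashed line is the share of all symbols that were expressed, 42.8%, and 3 T cell lists lie above it at 81.8% to 84.2%.

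Related genes that can do similar work were next compared within families, as each member's percent of the family's summed RPKM. In 71 families all members had rows of their own, and in 37 of them 1 member held 80% or more in both libraries. The leading member was the same in both libraries in 70 of the 71 families and the same in all 4 EL4 libraries in 66. In 18 families a lone member was expressed. Partners listed at 0 or near it may reflect expression or the counting of reads, so these counts describe listed values. The share with such a leader was 8 of 16 in receptor signalling, 5 of 11 among transcription factors, 8 of 11 in metabolism, 7 of 9 in the cytoskeleton, 5 of 8 in translation, 4 of 9 in chromatin, 0 of 5 in the cell cycle and 0 of 2 in cytokine signalling.

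Among the receptor signalling families with such a leader were several held by a lymphoid form. Zap70 held 100% of the SYK pair, with Syk listed at 0. Lcp2 held 99.3% and 99.6% of its adaptor family. Lck held 85.9% and 86.4% of the SRC kinases. Akt1, a widely expressed form, held 89.9% and 87.8% of the AKT kinases. Of the phospholipase C gamma pair, Plcg2, the isoform best known from B cells, was at 51.0 and 46.5 RPKM and Plcg1 was listed at 0, a value that may reflect expression or counting. The shCTCF libraries gave Plcg1 0.207 and 0.0782 RPKM. In the RASGRP family, where Rasgrp4 shares a row and was left out, Rasgrp1 held 96.3% and 97.4%.

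Other signalling families were shared out. Among the protein kinase C genes, Prkcb (65.3 and 70.0 RPKM) and Prkch (66.3 and 65.0 RPKM) had overlapping pairs, followed by Prkcd at 21.2 and 19.8 RPKM, with Prkcq, the theta isoform of T cells, listed at 0. Rac1 (136 and 146 RPKM) and the blood cell form Rac2 (127 and 115 RPKM) stood side by side without overlap. The calcineurin chain Ppp3ca was at 54.4 and 54.5 RPKM and Ppp3cb at 38.1 and 39.8 RPKM. Pik3cd, the leukocyte PI3-kinase, held 62.2% and 61.1% of its family at 42.5 and 39.9 RPKM. Nfatc3 was at 38.8 and 41.6 RPKM, above Nfatc2 at 13.7 and 12.2 RPKM and Nfatc1 at 1.5 and 1.41 RPKM. Orai3 led the calcium channel family at 29.5 and 28.2 RPKM, ahead of Orai1, the channel pore best known from T cells, at 9.89 and 12.2 RPKM.

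Transcription factor families gave both patterns. Bcl11b and Myc held 100% of their families and Id2 94.0% and 94.4% of the ID proteins. In families from which 1 member was left out because it shares a row (Gata5, Tcf7l1 and Tox4), Gata3 held 99.7% in each library, Tcf7 98.4% and 98.0%, and Tox 93.5% and 94.6%. Satb1, the genome organiser of thymocytes, was at 0.0632 and 0.0810 RPKM. Notch2 held 99.8% and 99.7% of the Notch receptors. By contrast, Runx3 held 64.3% and 61.4% with Runx1 (13.3 and 14.6 RPKM) and Runx2 (12.0 and 12.0 RPKM) below it. Of the 21 ETS genes with a row of their own 16 were expressed, beside 42.8% of all symbols. None was above 18.2% of their sum, which leaves out Elf1 and Gabpa. The FOXO genes Foxo1 (23.9 and 23.3 RPKM) and Foxo3 (23.4 and 20.6 RPKM) overlapped.

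**Figure D4:**
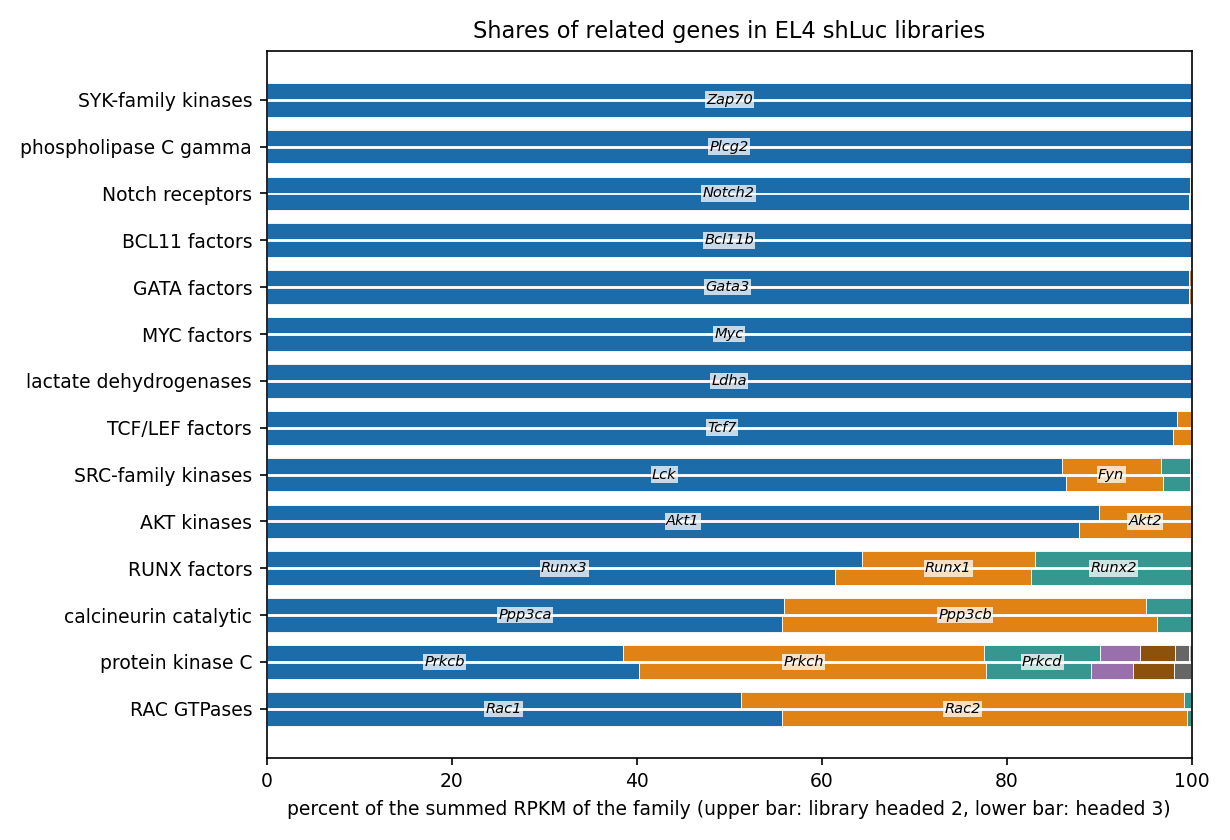
Stacked bars give each member's percent of the family's summed RPKM in the shLuc libraries headed 2 (upper) and 3 (lower), with colours for the rank of the member and names for members above 9%. Zap70, Plcg2, Notch2, Bcl11b, Gata3, Myc and Ldha fill their families, whereas Prkcb and Prkch, or Rac1 and Rac2, share theirs.

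Of the metabolic and cytoskeletal families, 8 of 11 and 7 of 9 had a member at 80% or more. Ldha held all but a trace of lactate dehydrogenase, with Ldhb at 0.148 and 0 RPKM. Aldoa held 98.8% of the aldolases in each library, and Pfkl 94.0% and 92.7% of the phosphofructokinases that have their own rows. Glucose entry was led by Slc2a3, the high-affinity transporter GLUT3, at 331 and 329 RPKM over Slc2a1 at 107 and 95.6 RPKM. With 75.4% and 77.4% of its family, Slc2a3 stayed below 80%. Lactate export was led by Slc16a1 at 114 and 129 RPKM, with Slc16a3, the export form of many glycolytic cells, at 0.414 and 0.283 RPKM. Of the NADP-dependent isocitrate dehydrogenases, Idh1 was at 3.29 and 2.54 RPKM and the mitochondrial Idh2 was listed at 0 in all 4 EL4 libraries, which may again reflect expression or counting. The leukocyte forms Lcp1 (219 and 221 RPKM) and Was (49.1 and 43.7 RPKM) held more than 80% of the plastins and WASP proteins. Coro1a (326 and 289 RPKM), also a leukocyte form, led the coronins with 52.5% and 52.0%. Lmnb1 (148 and 145 RPKM) led the lamins, with Lmna at 2.54 and 3.11 RPKM. The 5 cell cycle families had no member at 80%: for example, Cdk6 (186 and 193 RPKM) stood beside Cdk4 (123 and 117 RPKM).

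The expression classes differed in the composition of their promoters, which the choice of genes did not use. RefSeq promoters (GRCm38.p6, 250 bases before to 50 after the start) were matched by symbol for 14055 genes with their own row, and the 11886 with a lone start were used. The median number of CpG dinucleotides per 300 bases was 13 over all of them. It was 3 for genes listed at 0 and 9 for low genes, those below 1 RPKM in at least 1 library but not 0 in both. For expressed genes it was 19 at a mean below 10 RPKM and 23 both from 10 to 100 and from 100 RPKM upward. The ETS motif CCGGAAG, on either strand, occurred in 11.1% of all promoters, in 2.41% of those listed at 0 and in 24.8% of those at 100 RPKM or more. The letters TATAAA, on the coding strand 45 to 16 bases before the start, occurred in 3.32% of all, 5.43% of those listed at 0, 0.681% from 10 to 100 RPKM and 4.01% at 100 RPKM or more. The GATA motif AGATAA, on either strand, occurred in 10.4% of all promoters, 15.4% of those listed at 0 and 5.26% of those at 100 RPKM or more. The GC box GGGCGG, on either strand, occurred in 45.7%, 23.7% and 67.2% of the same sets. Their median GC content was 56%, 48% and 61.3%. The ETS motif and the GC box hold a CpG themselves, and AGATAA is rich in A and T. Whether the motif shares go beyond base composition was not tested. These values are a description across genes, and the shares count letters in these windows, not bound sites.

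Single genes departed from these medians, as 4 promoters show: those of Cd3e and Cpa3, both above 100 RPKM with few CpG, and those of the phospholipase pair, of which the gene listed at 0 has the larger number. CpG dinucleotides are in capitals, and each sequence runs 5′ to 3′ on the strand of the gene. The Cd3e promoter (chr9:45009562-45009861, minus strand) has 8 CpG, that of Cpa3 (chr3:20242132-20242431, minus strand) 3, that of Plcg2 (chr8:117498025-117498324, plus strand) 21 and that of Plcg1 (chr2:160731060-160731359, plus strand) 27.
Cd3e: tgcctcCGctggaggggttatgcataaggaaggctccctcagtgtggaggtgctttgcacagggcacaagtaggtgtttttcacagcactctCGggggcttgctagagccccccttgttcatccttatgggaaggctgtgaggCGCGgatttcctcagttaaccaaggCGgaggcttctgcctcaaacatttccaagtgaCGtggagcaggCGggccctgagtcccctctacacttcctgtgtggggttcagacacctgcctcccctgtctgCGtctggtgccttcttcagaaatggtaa
Cpa3: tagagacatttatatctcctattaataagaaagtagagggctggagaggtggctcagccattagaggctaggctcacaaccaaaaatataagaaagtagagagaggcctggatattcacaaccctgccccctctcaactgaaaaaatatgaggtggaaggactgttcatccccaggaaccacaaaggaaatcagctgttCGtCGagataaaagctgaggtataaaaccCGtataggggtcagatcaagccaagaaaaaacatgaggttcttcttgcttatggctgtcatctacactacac
Plcg2: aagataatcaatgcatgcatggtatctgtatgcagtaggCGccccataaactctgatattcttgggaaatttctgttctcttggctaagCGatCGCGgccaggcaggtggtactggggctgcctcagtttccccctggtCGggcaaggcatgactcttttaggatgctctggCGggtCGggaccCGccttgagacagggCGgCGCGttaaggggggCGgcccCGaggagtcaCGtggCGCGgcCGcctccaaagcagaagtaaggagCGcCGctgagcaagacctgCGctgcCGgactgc
Plcg1: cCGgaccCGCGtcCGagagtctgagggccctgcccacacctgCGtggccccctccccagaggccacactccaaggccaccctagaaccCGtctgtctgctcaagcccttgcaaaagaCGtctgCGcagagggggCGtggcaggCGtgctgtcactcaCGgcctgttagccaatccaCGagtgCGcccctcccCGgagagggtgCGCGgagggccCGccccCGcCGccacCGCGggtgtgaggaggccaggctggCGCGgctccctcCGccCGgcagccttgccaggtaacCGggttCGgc

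Of the chemokine and lipid homing receptors, 8 of 27 (29.6%) were expressed, beside 42.8% of all symbols, and 3 of them were above 100 RPKM. S1pr5, a sphingosine 1-phosphate receptor best known from NK cells, was at 176 and 160 RPKM. Cxcr4, the receptor for Cxcl12, was at 111 and 114 RPKM and Ccr9, the receptor of thymocytes and gut-homing T cells, at 105 and 109 RPKM, below Cxcr4 in both libraries. S1pr2 was at 43.2 and 36.5 RPKM, Cxcr6 at 19.7 and 20.6 RPKM and Ccr8, a receptor of skin-homing and Th2 cells, at 13.4 and 14.4 RPKM. Ccr7, which guides T cells to lymph nodes, was at 1.93 and 1.57 RPKM. Ccr2, Ccr3 and Ccr6 were listed at 0.

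Integrins were on in 7 of 21 cases (33.3%, beside 42.8% of all symbols). Itgal (50.1 and 49.6 RPKM) and Itgb2 (41.9 and 39.3 RPKM) encode the chains of LFA-1, which binds ICAMs. Itgb7 was at 13.4 and 11.4 RPKM, Itga6 at 11.6 and 11.7 RPKM and Itgav at 9.33 and 10.9 RPKM. Itgb1, the common partner of the beta-1 integrins, was listed at 0, as were Itga5 and Itgb5, with the same doubt between expression and counting. The shCTCF libraries gave Itgb1 0.110 and 0.0413 RPKM. Itga4 shares a row with Cerkl, and that row was at 0 and 0.0166 RPKM.

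Cytokine receptor chains were on in 25 of 54 cases (46.3%), near the 42.8% of all symbols. Il2rg, the common gamma chain, was highest at 95.1 and 99 RPKM, and Il9r, which pairs with it, was at 79.5 and 77.3 RPKM. Of the other partners, Il7r and Il21r (28.5 and 24.8 RPKM) overlapped, Il4ra was at 11.1 and 11.2 RPKM, and Il2rb (2.48 and 2.00 RPKM) and Il2ra (1.38 and 1.29 RPKM) were low in comparison. Il17ra was at 63.7 and 62.3 RPKM, Ifngr1 at 57.8 and 61.2 RPKM and the shared signal chain Il6st at 36.9 and 36.1 RPKM. The interferon receptor chains Ifnar1 (14.6 and 14.2 RPKM), Ifnar2 (23.9 and 22.4 RPKM) and Ifngr2 (19.9 and 21.3 RPKM) were all expressed. Il23r, Lifr and Osmr were listed at 0.

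Co-stimulatory and inhibitory receptors were on in 22 of 38 cases (57.9%), beside 42.8% of all symbols. The inhibitory receptor Pdcd1 (PD-1) was highest at 224 and 190 RPKM, above Cd28 in both libraries. Btla was at 16.7 and 18.4 RPKM, Tigit at 5.94 and 6.10 RPKM and Cd160 at 1.97 and 1.79 RPKM. The PD-1 ligands Cd274 (2.57 and 3.36 RPKM) and Pdcd1lg2 (2.91 and 2.01 RPKM) were expressed at low levels. Of the TNF receptors, 12 of 24 (50%) were expressed, led by Tnfrsf8, the CD30 antigen of lymphomas, at 28.8 and 24.6 RPKM, while the death receptor Fas was at 2.02 and 2.45 RPKM and Cd40 was listed at 0.

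**Figure D5:**
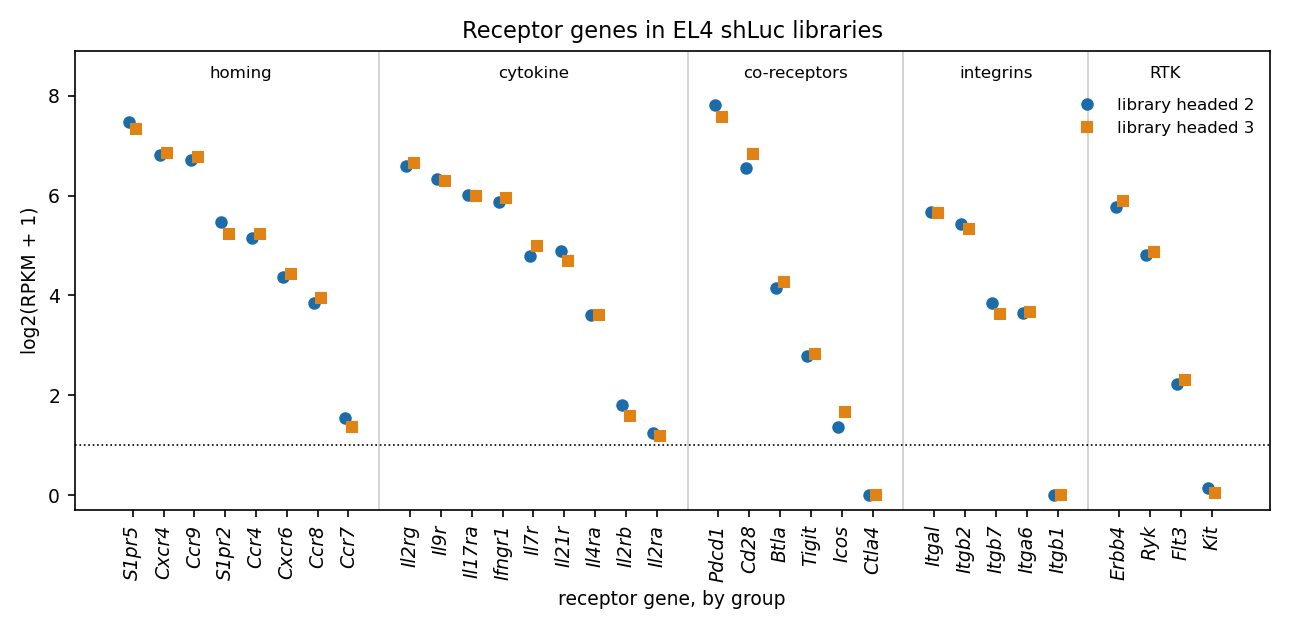
Levels of receptor genes as log2(RPKM + 1) in the shLuc libraries headed 2 (circles) and 3 (squares), grouped into homing, cytokine, co-stimulatory and inhibitory, integrin and receptor tyrosine kinase (RTK) genes, with 1 RPKM dotted. Pdcd1 at 224 and 190 RPKM and S1pr5 at 176 and 160 RPKM stand highest, and Ctla4 and Itgb1 lie at 0.

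Receptor tyrosine kinases were on in 12 of 55 cases (21.8%), beside 42.8% of all symbols, and 26 were listed at 0. Erbb4, a neuregulin receptor of heart, brain and epithelium, was highest at 53.9 and 58.4 RPKM. The Wnt co-receptor Ryk was at 27 and 28 RPKM, Lmtk2 at 22.0 and 20.8 RPKM and the collagen receptor Ddr1 at 8.25 and 7.26 RPKM. Egfr-related Erbb2 shares a row with another symbol and has no value of its own. Met, Alk, Ret, Axl and Fgfr1 were listed at 0.

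The Wnt pathway was on in 15 of 28 cases (53.6%), beside 42.8% of all symbols, led by Tcf7 and its partner Ctnnb1 (beta-catenin) at 272 and 261 RPKM. Fzd7 (9.60 and 9.60 RPKM) and Fzd5 (1.35 and 1.49 RPKM) were the expressed Frizzled receptors, and the other 8 with a row of their own (Fzd1 to Fzd4, Fzd6 and Fzd8 to Fzd10) were listed at 0. The negative feedback genes Axin2 (9.68 and 7.54 RPKM), Rnf43 (15.5 and 12.7 RPKM) and Znrf3 (10.0 and 9.98 RPKM) were on. Of 18 Wnt ligands 2 (11.1%) were expressed, against the same 42.8%: Wnt8b (6.16 and 5.02 RPKM) and Wnt6 (2.21 and 1.97 RPKM). Porcn, the acyltransferase that Wnt secretion needs, was listed at 0. In the TGF-beta list, Tgfbr1 (10.5 and 12.6 RPKM), Tgfbr2 (11.7 and 13.0 RPKM), Smad3 (26.2 and 24.2 RPKM) and Smad4 (60.2 and 63.5 RPKM) were on, while Bmpr1a and Smad1 of the BMP branch were listed at 0.

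Among 45 nuclear receptors 17 (37.8%) were expressed, near the 42.8% of all symbols. The glucocorticoid receptor Nr3c1 was highest at 46.6 and 50.9 RPKM, followed by the oxysterol receptor Nr1h2 at 33.3 and 30.9 RPKM and the retinoic acid receptor Rara at 30.1 and 27.2 RPKM. Of the innate sensors, 13 of 33 (39.4%) were expressed, also near it, and the highest were adaptors: Mavs at 34.8 and 30.9 RPKM, Traf6 at 22.4 and 22.8 RPKM, Tmem173 (STING) at 22.7 and 21.5 RPKM and Myd88 at 19.4 and 17.7 RPKM. The receptors Tlr2, Tlr3, Tlr5, Tlr7 and Tlr8, the RNA sensor Ifih1 and Mb21d1 (cGAS, the enzyme upstream of STING) were listed at 0. Aim2, a DNA sensor, was at 8.95 and 10.0 RPKM.

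Of 33 chemokines 2 (6.06%) were expressed, beside 42.8% of all symbols: Ccl25, the ligand of Ccr9, at 5.72 and 6.54 RPKM and Ccl5 at 1.44 and 3.38 RPKM. A further 27 were listed at 0. Of 76 cytokines and growth factors 23 (30.3%) were expressed, against the same 42.8%. The highest were Mif at 732 and 725 RPKM and Hdgf at 232 and 237 RPKM, both broadly expressed, then Tgfb1, Grn (63.9 and 60.7 RPKM), Vegfb (51.9 and 48.9 RPKM) and Vegfa (26.9 and 24.7 RPKM). The TNF family ligands Tnfsf9 (12.6 and 12.6 RPKM) and Tnfsf8 (12.8 and 12.0 RPKM), the latter the ligand of Tnfrsf8, were on. The T cell cytokines Il2, Il3, Il9, Il21 and Il22 were listed at 0, Il9 being the ligand of the expressed Il9r. Whether these 0 values reflect expression or the counting of reads could not be checked. Among channels, the calcium-gated potassium channel Kcnn4 was at 50.4 and 43.9 RPKM and the calcium store sensors Stim1 and Stim2 at 44.6 and 42.3 RPKM and at 34.6 and 35.9 RPKM.

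All 30 proliferation genes with a row of their own were expressed, beside 42.8% of all symbols, with a median of 93.8 RPKM. Top2a, which untangles chromosomes, was highest at 266 and 286 RPKM, followed by Mcm6 at 260 and 260 RPKM and Mki67 at 244 and 266 RPKM. Of 45 tumour suppressor and lymphoma genes 36 (80%) were expressed, beside 42.8% of all symbols. Myc was at 160 and 148 RPKM, and Mycn and Mycl1 were listed at 0. The suppressors Trp53 (106 and 97.8 RPKM), Rb1 (31.4 and 37.6 RPKM) and Cdkn2a (25.1 and 26.1 RPKM) all had reads, which says nothing of mutations. Among survival genes Mcl1 was at 105 and 106 RPKM, Bcl2 at 9.65 and 9.65 RPKM and Bcl2l1 at 7.32 and 5.23 RPKM.

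Stress and sex-linked genes completed the description. Of 27 stress and interferon genes 18 (66.7%) were expressed, beside 42.8% of all symbols. The chaperones Hspa8 and Hspa5 were at 742 and 712 RPKM and at 471 and 471 RPKM. Asns, made under amino acid shortage, was at 210 and 211 RPKM and Atf4 at 140 and 154 RPKM. The interferon-induced Ifit1 and Ifit3 were listed at 0. Of the Y-linked genes Kdm5d, Uty, Usp9y, Sry, Zfy1 and Zfy2 were listed at 0, Ddx3y was at 0 and 0.176 RPKM and Eif2s3y at 0.108 and 0 RPKM. The shared row of Xist and Tsix was at 0.0106 and 0.0399 RPKM, so neither the Y-linked genes nor the row of the X inactivation RNA had more than trace levels. The X-linked partners Ddx3x (357 and 398 RPKM) and Eif2s3x (75.2 and 82.0 RPKM) were expressed.

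Few genes differed between the libraries. Among the 5940 symbols with their own row and a mean of 10 RPKM or more, 37 (0.623%) differed more than 1.5-fold and 7 more than 2-fold. Most of the largest differences were in small RNA genes. Snord65 at 3.35 and 17.2 RPKM and Snora41 at 6.75 and 18.8 RPKM were higher in the second library. Mir3094 at 20.9 and 5.09 RPKM and Snord68 at 23.9 and 6.79 RPKM were higher in the first. Reads were not recovered for these genes. Snord104, at 28.8 and 15.6 RPKM, rested on 11 and 7 recovered reads, so a few reads decide the values of such short genes. The protein-coding genes Brcc3, a deubiquitinase, at 9.92 and 22.6 RPKM and Fam36a at 20.0 and 41.9 RPKM were also more than 2-fold higher in the second library. Of the 12 genes of the long non-coding list at a mean of 10 RPKM or more, 9 were higher in the second library. Their median log2 ratio, over all 12, was 0.24, and Malat1 was at 149 and 206 RPKM. The 12 include the microRNA gene Mir142 and the ribosomal RNA precursor Rn45s. Rn45s, among those that went the other way, was at 529 and 380 RPKM. Of the T cell lists, receptor signalling, surface molecules and transcription factors had median log2 ratios of 0.01, 0.00 and 0.05. The helper subset and early thymic lists, with 8 and 7 genes at that level, had -0.12 and -0.06.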

How the data were processed

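Poly(A) RNA of EL4 cells was sequenced. Per the submitters' processing notes, Bowtie2 was used for alignment and mm9 was the genome build. Read counter, annotation release and aligner version were not given in the sources used here. RPKM values were deposited by the authors in a table of 22119 rows with RefSeq transcripts, in which overlapping genes share a row, and a second table of selected genes with a log2 CPM column, deposited by the authors and not used for any value here. The full table heads the libraries 2 and 3 and the titles number them 1 and 2, so columns were placed in their group only. No per-sample column was left out (0).

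Rows were reduced to 21844 symbols by keeping, for each symbol, its row of highest mean. A gene was called expressed at 1 RPKM or more in both libraries. As the 2 shLuc libraries were described and not compared with another group, no test was made, and no p-value is given. Whole reads were recovered for 93.8% of 6984 single-transcript symbols at a mean of 1 RPKM or more (relative tolerance 1e-10). The divisors were set from 69 genes without introns whose RefSeq span equals the recovered length. On simulated RPKM of 1500 genes the search returned 96.5% of reads exactly and 3.53% up to a common factor, and recovered reads can be too low by such a factor. Rows of several transcripts gave no reads, and multiply mapped reads may be missing from near-identical copies. Without strand information in the sources, antisense partners cannot be told apart.

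The 41 gene lists and the families were chosen with earlier results of these data known. Named genes are the markers, the 20 highest genes, list members that are among the 8 highest, expressed in a list of another lineage or listed at 0, family members, and the 8 largest ratios between libraries in each direction. Other list members (among them Rag1, Notch1, Hes1, Cd4, Fas and Ccr7) and long non-coding genes were named after their values were seen. Some genes that the rule takes are not reported here. Calculations used Python 3.11.15, numpy 2.4.6, pandas 2.3.3 and matplotlib 3.10.9.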

Additional observations from a re-analysis of the deposited data

How the results depend on the processing

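No paired analysis was possible because no test between groups was made and the column numbers differ from those of the titles. The number of expressed symbols was 10173 at 0.5 RPKM, 8653 at 3 RPKM, 9675 with rows of a symbol summed, 9711 in the shCTCF libraries, 8811 without shared rows (an alternative chosen after seeing the data), and 9819 or 9875 with 1 library alone. The T cell lists had 104 to 123 expressed members over these settings. The 49 expressed members of other lineages became 30 at 3 RPKM, and 50 with either library alone. Families with a leader numbered 37 or 38 with 1 library alone, 52 at 60% and 29 at 90%. The silent reference genes gave 1 expressed gene, 3 at 0.5 RPKM, and 1 or 2 with 1 library alone. The share of the 100 highest genes was 19.5% or 18.9% with 1 library alone, ranked by that library. In the shCTCF libraries Thy1 averaged 483 RPKM and Gata3 54.9 RPKM, each lower than with shLuc by more than 1 SD of the shLuc libraries, and Cd3e 151 RPKM. With 1 library alone Thy1 was at 590 to 640 RPKM, Cd3e at 136 to 166 RPKM and Gata3 at 62.3 to 65.6 RPKM. Depth limits statements on short or low genes, where a few reads decide between low and 0, and 2 libraries give a poor estimate of the spread.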

Other observations

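Gene groups that are silent in most tissues served as a reference for the floor of the table. Of 1558 olfactory, vomeronasal and taste receptor, keratin-associated protein and defensin genes, 1525 (97.9%) were listed at 0 in both libraries, beside 40.4% of all symbols. Against 42.8% of all symbols, 1 was expressed, Olfr368 at 1.36 and 1.16 RPKM, on 7 and 7 recovered reads. The olfactory receptor with the highest mean was Olfr524 at 0.997 and 2.73 RPKM, on 5 and 16 recovered reads. The 99th percentile of the reference was 0.0846 RPKM. At the other end, all 67 mitochondrial ribosomal protein genes and 36 complex I genes with rows of their own were expressed. So were all such 26 Mediator genes and 10 RNA polymerase II genes, beside 42.8% of all symbols.

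Some tissue-restricted families had members well above that floor. Of 37 Hox genes, which pattern the body axis, 17 (45.9%) were expressed, beside 42.8% of all symbols. Hoxd8 was highest at 65.4 and 80.3 RPKM, followed by Hoxa10 at 16.4 and 14.3 RPKM, Hoxc6 at 10.3 and 14.4 RPKM and Hoxa13 at 9.77 and 9.10 RPKM. Of 100 cytochrome P450 genes 9 were expressed. Cyp11a1, which starts steroid synthesis from cholesterol, was at 54.1 and 55.3 RPKM, above Cyp51, a step of cholesterol synthesis, at 30.4 and 27.9 RPKM. Of 25 claudins 1 was expressed, Cldn25 at 15.3 and 17.0 RPKM, and of 45 keratins 1, Krt2 at 1.46 and 1.62 RPKM.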
